A study of Mus musculus with 2 samples.

Results

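The 6 genes described here encode the DNA methyltransferases (Dnmt1, Dnmt3a and Dnmt3b) and the Tet dioxygenases (Tet1, Tet2 and Tet3) of the mouse. They were examined through the MeDIP-seq peaks that overlapped, by at least 1 bp, a window holding the gene with about 10 kb on each side. This gave 77 HFD peaks and 66 STD peaks, out of 175767 and 166432 nuclear peaks in the whole lists. The samples were epididymal white adipose tissue, a visceral fat depot. All mice were males of the inbred strain C57BL/6J. In the HFD group they ate a high-fat diet, with 60% of the calories as fat, for 5 months, starting when they were 4 weeks old. In the STD group they received regular chow for the same time. MeDIP-seq captures fragments that carry 5-methylcytosine with an antibody and sequences them, and a peak is a place where such fragments pile up. There was 1 library for each diet, and how many mice it came from is not in the labels. No difference between the diets can therefore be set against a replicate spread, and none is tested. The exact 95% intervals reflect counting error and count each peak as if it were independent. Since the lists give positions and no reads, the sequencing depth is unknown, and the lack of a peak does not show a lack of methylation. Whole adipose tissue holds adipocytes, immune cells and stromal cells, and a difference in cell mixture cannot be told apart from a difference within one cell type.

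DNA methyltransferases place a methyl group on cytosine, mostly at CpG dinucleotides. Dnmt1 copies the pattern onto the new strand after replication, while Dnmt3a and Dnmt3b set methylation on unmethylated DNA. Tet dioxygenases oxidise 5-methylcytosine to 5-hydroxymethylcytosine and further forms, a step toward demethylation. CpG-rich gene starts are usually unmethylated, whereas the CpGs of transcribed gene bodies are usually methylated. Dnmt1 has an oocyte-specific first exon upstream of the somatic one, and Dnmt3a has an internal start that yields the shorter isoform Dnmt3a2.

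The sequence around the starts gives the number of CpGs there, but not whether they were methylated. The RefSeq promoter table (GRCm38.p6; 250 bases before to 50 after each start) held 10 promoters for the 6 genes. The dinucleotide CG, which reads the same on both strands, was counted in each. The median over all 32851 promoters of the table was 7 CpGs. The Tet2 promoter had 57 CpGs, and 0.152% of all promoters had as many. The first 2 Dnmt3a starts lay 0.180 kb apart and had 46 and 47, which 1.65% and 1.44% of all promoters reached. Dnmt3b had 30, Tet3 22 and Tet1 17. Dnmt1 was the exception in its most upstream start, with 2 CpGs, a number that 85.9% of all promoters reached, while its starts 6.91 and 7.27 kb further down had 12 and 33. The internal Dnmt3a start, 84.8 kb below the first, had 18. The 5 promoters below are the ones set beside peaks in the following paragraphs, with each CpG in capitals. Their positions follow GRCm38.p6 and cannot be set against the mm9 positions of the peaks.
Dnmt1, most upstream start, chr9:20959839-20960138, minus strand: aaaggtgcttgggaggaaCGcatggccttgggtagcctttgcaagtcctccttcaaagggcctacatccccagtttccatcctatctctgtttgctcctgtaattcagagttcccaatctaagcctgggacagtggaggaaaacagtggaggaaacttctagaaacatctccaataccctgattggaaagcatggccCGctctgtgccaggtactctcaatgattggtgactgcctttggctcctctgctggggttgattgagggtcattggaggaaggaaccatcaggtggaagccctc
Dnmt1, most downstream start, chr9:20952574-20952873, minus strand: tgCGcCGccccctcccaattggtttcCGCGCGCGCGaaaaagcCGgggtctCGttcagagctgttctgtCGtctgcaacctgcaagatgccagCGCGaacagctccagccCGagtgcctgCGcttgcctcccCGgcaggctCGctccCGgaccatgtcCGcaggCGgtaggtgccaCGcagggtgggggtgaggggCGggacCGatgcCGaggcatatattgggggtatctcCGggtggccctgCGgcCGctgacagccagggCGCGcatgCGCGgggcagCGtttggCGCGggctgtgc
Dnmt3a, first start, chr12:3806730-3807029, plus strand: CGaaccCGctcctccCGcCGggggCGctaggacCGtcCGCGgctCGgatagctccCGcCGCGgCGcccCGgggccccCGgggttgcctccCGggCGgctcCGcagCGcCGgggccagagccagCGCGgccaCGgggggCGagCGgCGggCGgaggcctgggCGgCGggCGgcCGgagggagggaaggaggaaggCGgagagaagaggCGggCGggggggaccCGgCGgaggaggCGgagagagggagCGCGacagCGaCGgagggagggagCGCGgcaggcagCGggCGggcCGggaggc
Dnmt3a, internal start, chr12:3891494-3891793, plus strand: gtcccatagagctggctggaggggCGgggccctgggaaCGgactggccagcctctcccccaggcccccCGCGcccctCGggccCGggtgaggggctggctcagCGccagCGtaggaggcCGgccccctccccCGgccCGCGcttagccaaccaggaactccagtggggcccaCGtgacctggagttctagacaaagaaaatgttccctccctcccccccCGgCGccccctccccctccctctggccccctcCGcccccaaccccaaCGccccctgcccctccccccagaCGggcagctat
Tet2, chr3:133544341-133544640, minus strand: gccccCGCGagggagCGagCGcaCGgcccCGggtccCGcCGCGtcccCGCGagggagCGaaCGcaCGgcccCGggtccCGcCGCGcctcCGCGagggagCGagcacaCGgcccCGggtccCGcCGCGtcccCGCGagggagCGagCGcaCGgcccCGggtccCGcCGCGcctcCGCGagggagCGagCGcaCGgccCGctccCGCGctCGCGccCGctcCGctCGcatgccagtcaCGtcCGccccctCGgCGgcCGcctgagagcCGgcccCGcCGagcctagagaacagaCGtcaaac

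On mm9, distances below are given from the gene start point, which is the point 10 kb inside the window at the 5′ end of the gene. It approximates the annotated start, since the windows are given in whole kb with flanks of about 10 kb. Distances of a fraction of a kb are therefore below the precision of this point. They do not show how near the annotated start a peak lay, or on which side. Positive distances run into the gene. The gene bodies made up 467 of the 587 kb of the 6 windows and carried 65 of 77 HFD peaks and 56 of 66 STD peaks. That is 13.9 peaks per 100 kb with HFD (10.7 to 17.7) and 12.0 with STD (9.06 to 15.6). The upstream flanks carried 4 peaks with HFD and 4 with STD, or 6.67 per 100 kb in either (1.82 to 17.1), and these intervals overlap those of the gene bodies. The downstream flanks carried 8 with HFD and 6 with STD. The map of peaks along the genes shows the same peaks one by one.

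**Figure D1:**
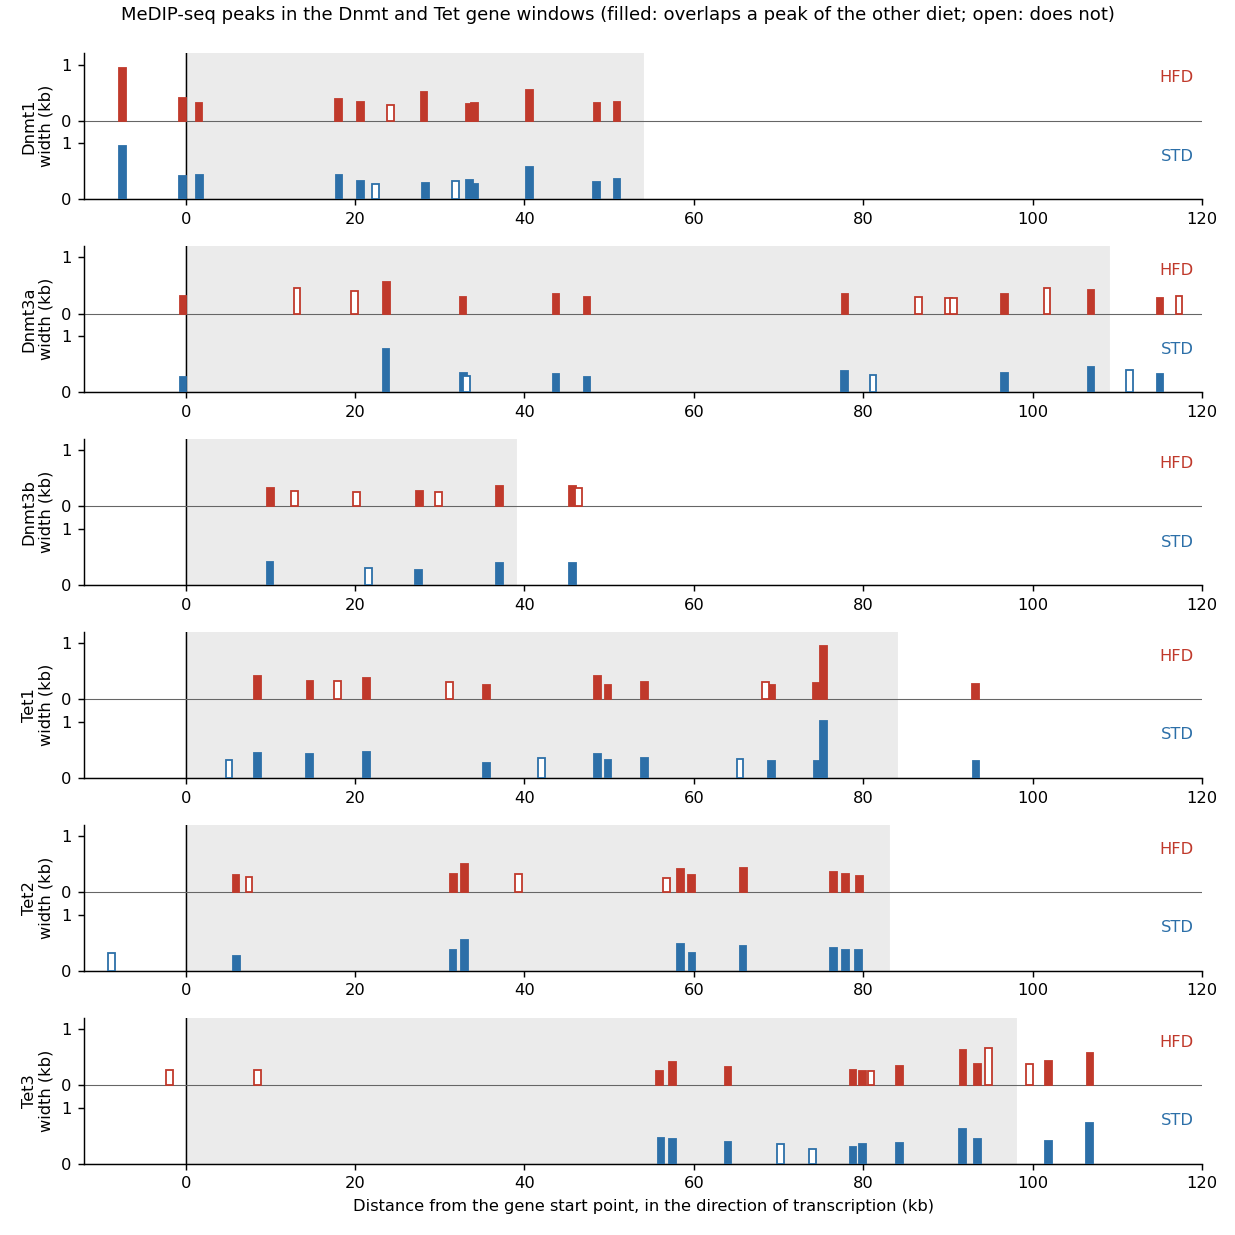
Peaks in the 6 windows by distance from the gene start point (x axis, kb, in the direction of transcription) with bar height giving the peak width in kb, HFD above STD; grey marks the gene body, filled bars overlap a peak of the other diet and open bars do not, and bars are drawn wider than the peaks for visibility. In the Tet3 panel the 2 peaks nearest the start are open HFD bars, and the next peak in either list stands about 56 kb into the gene.

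Dnmt1, the maintenance enzyme, was the most densely covered window, with 12 HFD peaks and 13 STD peaks in 74 kb (chr9:20701001-20775000). Of its 14 loci, meaning stretches covered by overlapping peaks of either list, 11 were found with both diets. The broadest peak lay about 7 kb upstream of the start point, on the side of the neighbouring gene S1pr2, and was 934 bp wide with HFD (chr9:20771968-20772901) and 944 bp with STD (chr9:20772011-20772954). A pair just upstream of the start point, by 0.169 kb with HFD and 0.172 kb with STD, was 397 bp and 410 bp wide. At distances so short, the side of the annotated start on which this pair lay cannot be told. A second pair, 322 bp with HFD (chr9:20763284-20763605) and 423 bp with STD (chr9:20763132-20763554), began about 1.4 kb into the gene. Beyond it, no peak of either list was present from 1.87 to 17.9 kb into the gene. In the promoter table the CpG-poor start is the most upstream one and the start with 33 CpGs lies 7.27 kb further down. That spacing was not measured on mm9, and the table does not say which start is used in fat. A peak without a partner is one that no peak of the other list overlapped by at least 1 bp. In this window 1 of 12 HFD peaks and 2 of 13 STD peaks had none, against 30.3% of all HFD peaks and 26.5% of all STD peaks. They were an HFD peak of 274 bp (chr9:20740684-20740957) and STD peaks of 329 bp (chr9:20732980-20733308) and 266 bp (chr9:20742481-20742746), each with a peak of the other list within 1.37 to 1.52 kb.

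Dnmt3a, a de novo methyltransferase, had 16 HFD peaks and 12 STD peaks in 129 kb (chr12:3796001-3925000). Of its HFD peaks, 7 of 16 had no partner, against 30.3% of all HFD peaks, and of its STD peaks, 3 of 12, against 26.5% of all STD peaks. The share of HFD peaks with a partner was thus 56.3% with an interval of 29.9 to 80.3%, which includes the value of the whole list, 69.7%. A pair lay 0.175 kb upstream of the start point with HFD (312 bp, chr12:3805515-3805826) and 0.193 kb upstream with STD (263 bp, chr12:3805546-3805808). The STD width is the narrowest in its list. These distances are below the precision of the start point, so they do not place the pair at the promoter. From this pair into the gene, no peak of either list was present for 13.1 kb. The next peak in the gene, an HFD peak of 452 bp (chr12:3818922-3819373), had its nearest STD peak 9.90 kb away and was the broadest peak found with 1 diet only in this window. Another HFD peak of 447 bp without a partner (chr12:3907501-3907947) lay 102 kb into the gene. The 7 HFD peaks without a partner were 271 to 452 bp wide. The STD peaks without a partner were 284 bp (chr12:3838983-3839266), 302 bp (chr12:3887012-3887313) and 402 bp (chr12:3917308-3917709), the first of them only 0.103 kb from an HFD peak. The broadest pair of the window, 23.4 kb into the gene with HFD and 23.3 kb with STD, was 555 bp wide with HFD and 771 bp with STD.

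The stretch between the neighbouring pairs at 77.7 and 96.5 kb into Dnmt3a was picked after its values were seen. Because its limits are neighbouring pairs, it holds no locus found with both diets by construction. An STD peak of 302 bp stood alone at 81.0 kb. HFD peaks of 298, 272 and 271 bp stood alone at 86.4, 89.9 and 90.5 kb. In the promoter table the internal start lies 84.8 kb below the first one. That spacing follows GRCm38.p6 and was not measured on mm9, so it does not place the internal start among the peaks. The narrowest width in the HFD list is 255 bp, so the 3 HFD peaks were 16 to 43 bp above it.

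Dnmt3b, the second de novo enzyme, had the fewest peaks, 8 with HFD and 5 with STD in 59 kb (chr2:153465001-153524000). No peak of either list lay in its upstream flank or in the first 9.75 kb of the gene, a stretch of 22.6 kb that also reaches 12.8 kb upstream of the start point. At the 4 loci found with both diets, HFD peaks were 277 to 368 bp wide and STD peaks 263 to 412 bp. The median widths of the whole lists were 321 bp with HFD and 332 bp with STD. The broadest HFD peak was 368 bp wide, in the downstream flank toward Mapre1 (chr2:153520440-153520807), and the broadest STD peak was 412 bp wide (chr2:153484751-153485162). HFD peaks without a partner had widths of 282 bp (chr2:153487696-153487977), 265 bp (chr2:153495040-153495304), 256 bp (chr2:153504705-153504960) and 325 bp (chr2:153521189-153521513). The narrowest width in the HFD list is 255 bp, so those of 256 and 265 bp were close to it. The only STD peak without a partner, 304 bp wide (chr2:153496440-153496743), lay 1.14 kb from the HFD peak of 265 bp. Thus 4 of 8 HFD peaks had no partner, against 30.3% of all HFD peaks, and 1 of 5 STD peaks, against 26.5% of all STD peaks. The share of HFD peaks with a partner had an interval of 15.7 to 84.3%, and the ratio of HFD to STD peaks, 1.60, had an interval of 0.462 to 6.22.

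Tet1, which binds CpG-rich DNA through a CXXC domain, had 14 peaks with HFD and 14 with STD in 104 kb (chr10:62257001-62361000). Of its 17 loci, 11 (64.7%) were found with both diets and 3 (17.6%) with each diet alone, against 55.6% with both, 24.3% with HFD only and 20.1% with STD only over the whole lists. The broadest peaks of all 6 windows lay here, about 75 kb into the gene, with 957 bp in HFD (chr10:62275227-62276183) and 1019 bp in STD (chr10:62275208-62276226). No peak of either list was present from 41.9 kb upstream to 4.93 kb downstream of the start point. The peak that ends this stretch was an STD peak of 326 bp without a partner (chr10:62345747-62346072), and the first HFD peak, 421 bp wide, lay 8.26 kb into the gene. The other STD peaks without a partner were 335 bp (chr10:62285373-62285707) and 354 bp (chr10:62308833-62309186). The HFD peaks without one were 306 bp (chr10:62282395-62282700), 311 bp (chr10:62319734-62320044) and 333 bp (chr10:62332925-62333257).

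Tet2, which lacks a CXXC domain and is the Tet gene often mutated in human blood cell disorders, had 12 HFD peaks and 10 STD peaks in 103 kb (chr3:133116001-133219000). The CpG-richest promoter of the set, printed above, belongs to this gene. Around its start point, from 8.58 kb upstream to 5.78 kb downstream, no peak of either list was present. The broadest pair, about 33 kb into the gene, was 501 bp wide with HFD (chr3:133175852-133176352) and 553 bp with STD (chr3:133175819-133176371). Of the STD peaks, 9 of 10 had a partner (90.0%, 55.5 to 99.75), against 73.5% of all STD peaks. The one without (313 bp, chr3:133217585-133217897) stood in the upstream flank, 1.82 kb from an HFD peak beyond the window. Of the HFD peaks, 3 of 12 had no partner, against 30.3% of all HFD peaks. These 3 were 255 bp (chr3:133152138-133152392), 334 bp (chr3:133169508-133169841) and 267 bp (chr3:133201398-133201664). The first has the narrowest width in the HFD list. At the other end of the gene, a stretch of 47.7 kb without a peak began 79.7 kb from the start point and ran past the window.

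Tet3, the Tet enzyme known for oxidising the paternal genome in the zygote, had 15 HFD peaks and 12 STD peaks in 118 kb (chr6:83302001-83420000). Its loci gathered in the distal part of the gene. From 8.59 to 55.8 kb there was no peak of either list. Nearer the start, 2 narrow HFD peaks of 280 bp (chr6:83411746-83412025, 1.75 kb upstream of the start point) and 264 bp (chr6:83401410-83401673, 8.33 kb into the gene) had no STD peak within 14.6 and 24.9 kb, and the first STD peak lay 55.9 kb into the gene. In this window 5 of 15 HFD peaks and 2 of 12 STD peaks had no partner, against 30.3% of all HFD peaks and 26.5% of all STD peaks. The broadest HFD peak of the window, 660 bp wide (chr6:83314902-83315561), had no partner and was the broadest peak found with 1 diet only in the 6 windows, with an STD peak 0.740 kb away. The next broadest HFD peak without a partner was 371 bp wide (chr6:83310133-83310503). The STD peaks without a partner were 263 bp (chr6:83335836-83336098) and 360 bp (chr6:83339590-83339949). The first has the narrowest width in the STD list. The broadest STD peak, 725 bp (chr6:83302862-83303586), lay in the downstream flank on the side of Bola3, where the HFD peak was 578 bp wide.

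Peak-free stretches as long as those at Tet1, Tet2 and Tet3 were a small share of all gaps but a large share of the genome. On the autosomes the median gap between neighbouring loci was 5.38 kb. Gaps at least as long as the 46.8 kb at the Tet1 start made up 3.62% of autosomal gaps and held 28.4% of the autosomal span. For the 22.6 kb at Dnmt3b the values were 10.6% and 48.2%. Within 2 kb of the 6 start points there were 4 HFD peaks and 3 STD peaks, those at Dnmt1 and Dnmt3a named above and the HFD peak at Tet3. At the mean density of the windows, 3.15 HFD and 2.70 STD peaks would fall in zones of that total length. Within 5 kb there were 4 HFD and 4 STD peaks, where 7.87 and 6.75 would fall at that density. The zones are centred on start points that only approximate the annotated starts. A peak within 2 kb of such a point is therefore not shown to lie at a promoter.

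The windows were then compared with the 1 Mb centred on each, less the window itself. With all peaks and these surroundings, peak density in the windows did not differ from that around them beyond counting error. Over the 6 windows there were 13.1 HFD peaks per 100 kb, against 11.1 in the surroundings, a ratio of 1.18 (0.918 to 1.497). With STD there were 11.2 per 100 kb, against 10.1 in the surroundings, a ratio of 1.12 (0.853 to 1.45). Both intervals include 1, as did those of each gene in each diet. The ratios by gene ran from 1.08 at Tet1 to 1.30 at Dnmt3a with HFD, and from 0.831 at Dnmt3b to 1.47 at Dnmt1 with STD. Over the 6 windows the ratio was higher in some other settings. With surroundings of 1 Mb on each side it was 1.31 (HFD) and 1.21 (STD). Among peaks of at least 300 bp it was 1.35 and 1.42, and in the wider 50% of each list 1.34 and 1.39. No intervals were computed for these settings, so whether they exceed counting error was not tested. The autosomes as a whole had 7.24 HFD and 6.85 STD peaks per 100 kb, so the windows were 1.81 and 1.64 times as dense as the autosomes, and the surroundings too were denser than the autosomes. The 3 Dnmt windows together had 13.7 HFD and 11.5 STD peaks per 100 kb, and the 3 Tet windows 12.6 and 11.1.

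**Figure D2:**
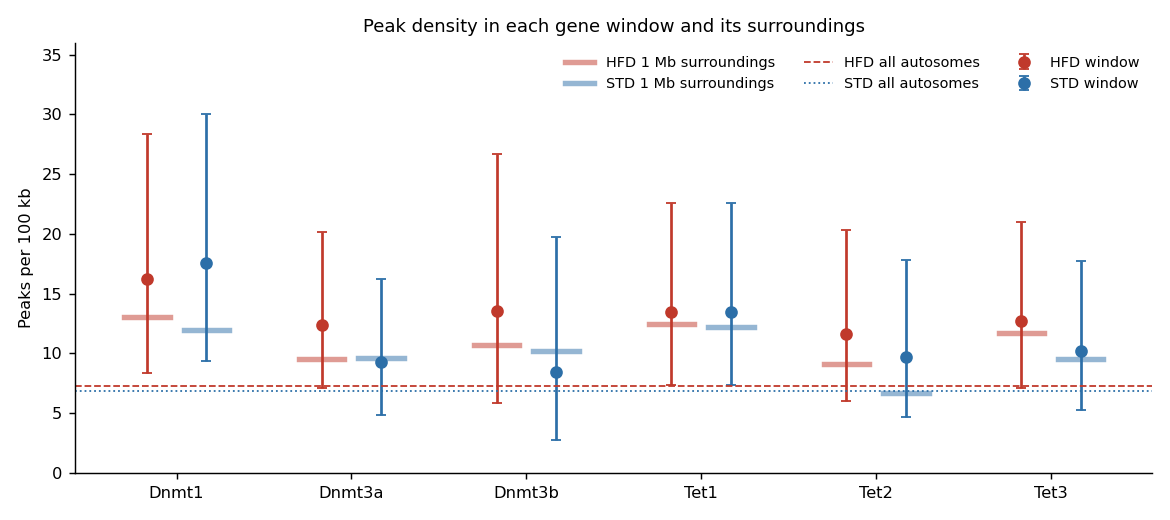
Peaks per 100 kb (y axis) in each gene window, HFD left of STD, as points with exact 95% Poisson intervals; thick bars give the 1 Mb surroundings and the dashed and dotted lines all autosomes. Dnmt1 has the highest point with each diet, at 16.2 (HFD) and 17.6 (STD), and the intervals of all genes reach their surroundings.

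Between diets, most loci of the 6 windows were found with both. Of 89 loci, 54 (60.7%) carried peaks of both lists, 23 (25.8%) an HFD peak only and 12 (13.5%) an STD peak only. Over the whole lists the shares were 55.6%, 24.3% and 20.1%. Among HFD peaks 29.9% had no partner, close to the 30.3% of all HFD peaks, and among STD peaks 18.2% had none, against 26.5% of all STD peaks. The share with a partner was 70.1% with HFD (58.6 to 80.03) and 81.8% with STD (70.4 to 90.2), and each interval includes the value of its whole list, 69.7% and 73.5%. In the surroundings the shares were 68.6% with HFD and 75.7% with STD. The 23 HFD-only against 12 STD-only peaks gave a ratio of 1.92 (0.915 to 4.23). It was 1.43 (1.14 to 1.80) in the surroundings and 1.21 (1.19 to 1.22) over the whole lists. The 54 HFD and 54 STD peaks with a partner formed 54 pairs. The order of the 2 shares therefore follows from the peak numbers and is no separate result. It changed with the limit on peak width. In the wider 50% of each list, 71.43% of HFD and 73.17% of STD peaks in the windows had a partner. Among peaks of at least 300 bp, 52 with HFD and 55 with STD, the shares were 71.15% and 67.27%. The shares of the surroundings and of the whole lists were not computed under these limits. Whether the change is particular to these genes was therefore not tested. In both settings a partner had to pass the same limit. In all peaks of the 6 windows the HFD over STD ratio was 1.17 (0.829 to 1.65), and in covered bases 1.07. It was 1.02 in the wider 50% of each list, 42 HFD and 41 STD peaks. Among peaks of at least 300 bp it was 0.946, but a fixed limit takes out more peaks of the HFD list, whose widths run lower. By gene the ratio of peak number was 0.923 at Dnmt1 (12 HFD and 13 STD peaks), 1.20 at Tet2, 1.25 at Tet3, 1.33 at Dnmt3a and 1.60 at Dnmt3b, while Tet1 had 14 peaks with either diet. All 6 intervals include 1. With the wider 50% of each list the order of the diets turned at Dnmt1 (8 HFD and 7 STD peaks), Tet2 (6 and 7) and Tet3 (9 and 10), and Tet1 had 6 HFD and 8 STD peaks.

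**Figure D3:**
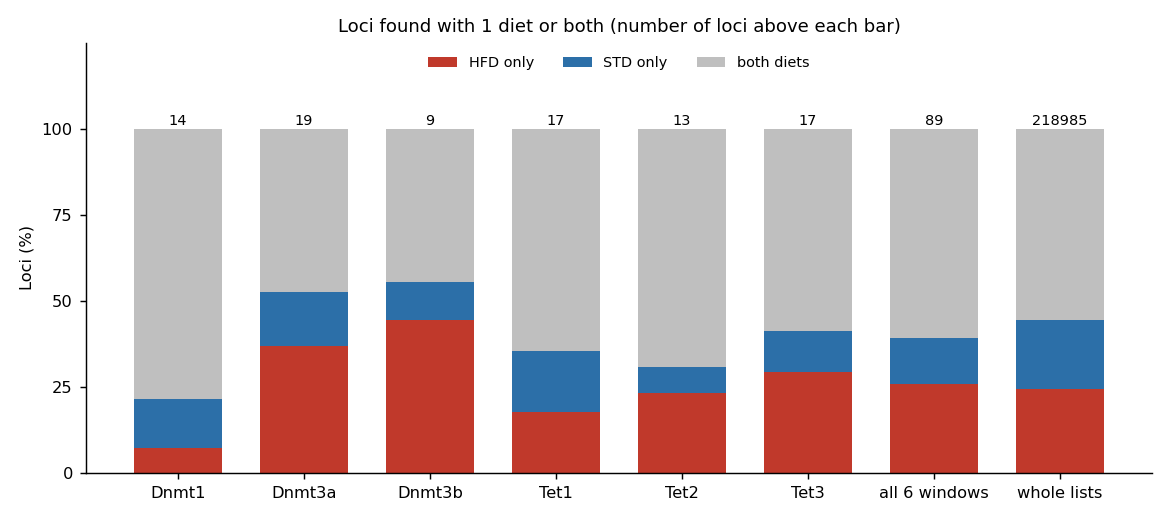
Share of loci (y axis, %) found with HFD only, STD only or both diets, for each gene window, the 6 windows together and the whole lists, with the number of loci above each bar. Dnmt3b and Dnmt3a have the largest HFD-only shares, 44.4% of 9 and 36.8% of 19 loci, and Dnmt1 the smallest, 7.14% of 14.

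Where both lists had a peak, the HFD peak was mostly the narrower one, a comparison chosen after the data had been seen. The 54 pairs had midpoints a median of 19.8 bp apart. The median width was 336 bp with HFD and 378.5 bp with STD, and the median HFD minus STD difference within pairs was -30 bp (quartiles -59.8 and -10.3 bp). The HFD peak was narrower in 42 of 54 pairs, or 77.8% (64.4 to 88.0). It was narrower in 53.6% of 405 pairs in the surroundings (48.6 to 58.5), with a median difference of -8 bp, and in 56.0% of the 120322 pairs of the whole lists, where the median was also -8 bp. These intervals count each pair as independent, although all pairs come from the same 2 libraries, so they are a description and no test of diet. The narrowest peak of the HFD list was 8 bp narrower than that of the STD list, and when 8 bp were added to every HFD width the HFD peak was narrower in 41 of the 54 pairs and in 49.9% of all pairs. Since the median of all pairs was -8 bp, the shift brings all pairs near an even split by construction. It is therefore no independent comparison, and why the widths differed was not tested.

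By gene, the HFD peak was narrower in 11 of 11 pairs at Tet1, by 1 to 99 bp. It was narrower in 8 of 9 pairs at Tet2 and 8 of 10 at Tet3, with median differences of -52 and -51 bp. At Dnmt1 it was narrower in 7 of 11 pairs, at Dnmt3a in 5 of 9 and at Dnmt3b in 3 of 4, with medians of -13, -21 and -28.5 bp. The largest difference in the HFD direction was at Dnmt1, where an HFD peak of 514 bp (chr9:20736624-20737137) overlapped an STD peak of 279 bp. The largest in the STD direction were at Dnmt3a, the pair of 555 bp with HFD and 771 bp with STD, and at Tet3, where an HFD peak of 261 bp (chr6:83353926-83354186) overlapped an STD peak of 466 bp.

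**Figure D4:**
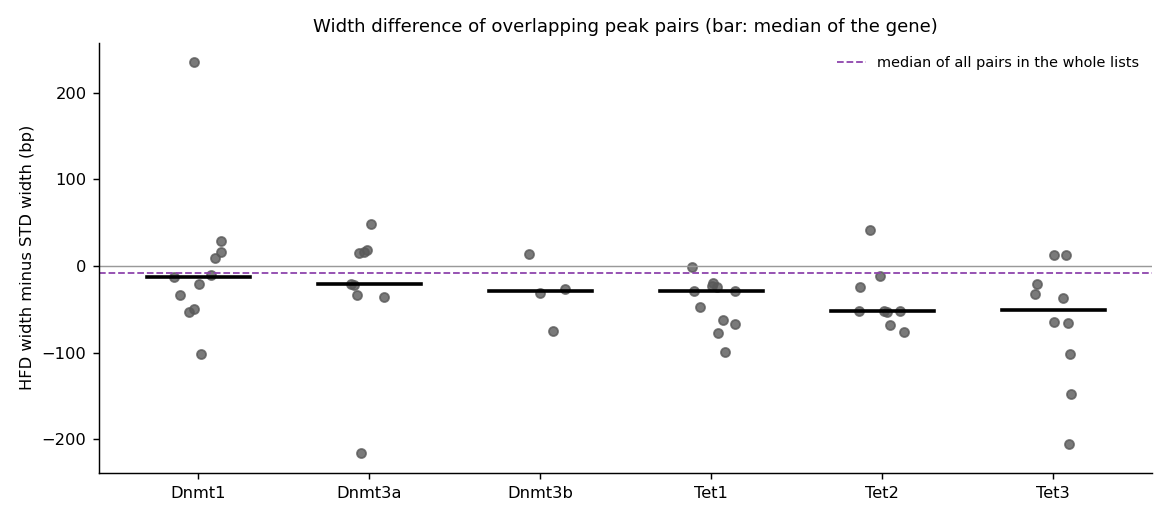
HFD minus STD width in bp (y axis) of each pair of overlapping peaks, by gene, with black bars at the median of the gene and a dashed line at the median of the 120322 pairs of the whole lists, -8 bp; points are spread sideways for visibility. All 11 Tet1 points lie below 0, and the Dnmt1 point at 235 bp is the highest.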

How the data were processed

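MeDIP-seq peak lists of 2 libraries, 1 per diet, were analysed. Per the submitters' processing notes, BWA and the build mm9 were used. Which peak caller and threshold were used, whether an input served as control and whether mice were pooled is not given in the sources used here. Per library, the authors deposited chromosome, start, end and name of each peak, with no score or count, so presence, position and width were compared. Positions are printed counting from 1. Peaks of chromosomes 1 to 19, X and Y were used, and 6 mitochondrial peaks per list were set aside.

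Windows followed the stated mm9 limits. A partner was a peak of the other list overlapping by at least 1 bp (identical numbers with bedtools 2.31.1). Strand and promoters came from RefSeq (GRCm38.p6), whose coordinates were not converted. Neighbouring genes were named by order in that table. Other genes of the pathway, such as Uhrf1 and Tdg, were not analysed here, because no mm9 positions were at hand. Intervals are exact Poisson, Clopper-Pearson and conditional binomial intervals at 95%. Scripts ran on scipy 1.17.1, numpy 2.4.6, pandas 2.3.3 and Python 3.11.15, with figures by matplotlib 3.10.9, and the overlap code was tested on simulated data. Named peaks are, per window, the broadest of each list, those within 2 kb of the start point and those without a partner (the 2 broadest per list where over 4). Genes and settings were chosen with earlier results of these data known. Alternatives concerned peak width, window limits, overlap rule, surroundings and single genes.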

Additional observations from a re-analysis of the deposited data

How the results depend on the processing

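With the wider 50% of each list, the 6 windows held 42 HFD and 41 STD peaks in place of 77 and 66, fewer by construction. The lists hold no score, so whether width follows peak strength was not tested. With peaks of at least 300 bp, 67.3% of STD peaks had a partner, below the interval of the main value of 81.8%. A partner then also had to reach 300 bp, and the share of the whole list was not computed with this filter. That filter moved the HFD over STD ratio to 0.946, inside its interval but on the other side of 1, while the wider 50% of each list gave 1.02. Against the rest of the same chromosomes the windows were 1.87 (HFD) and 1.69 (STD) times as dense, against 1.18 and 1.12 with the 1 Mb surroundings. Within 1 kb of the start points, a distance near the precision of these points, there were 2 HFD peaks, in place of 4 within 2 kb. Of 48 peak numbers recomputed for single genes, 12 moved by over 1.5 times, all with the wider 50% of each list or with peaks of at least 300 bp. With the latter, Tet3 had 9 HFD and 11 STD peaks and Dnmt3b 4 with either diet. The other 80 of 86 recomputed values over the 6 windows stayed inside the main interval or, for counts, within 1.5 times the main value. Among them, the share of pairs with the narrower HFD peak, whose alternatives were added after seeing the data, ran from 72.1 to 82.2% when each gene was left out in turn. No paired analysis was possible because there was a single library for either diet, which also leaves no replicate to drop. Because depth is unknown, a missing peak does not show that methylation was absent.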
